A study of Mus musculus with 80 samples.

Results

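Fixed tissue from livers collected in 1994 was compared with frozen tissue from the same mice. Each of 6 untreated control mice gave 1 library from formalin-fixed, paraffin-embedded (FFPE) liver and 1 library from frozen liver, which makes 12 of the 80 libraries in the series. They are the FFPE and frozen libraries of controls 3 to 8 in the series' dichloroacetic acid (DCA) study, and each pair was compared within its animal. The mice were male B6C3F1 hybrids, 4 weeks old per the labels, and received 0 g/L DCA in drinking water, so neither preparation of these animals carried a chemical treatment. The frozen libraries came from mixed lobes and the FFPE libraries from the left lateral and right medial lobes. All libraries were made from 100 ng of RNA with a strand-specific total RNA kit that removes ribosomal RNA. FFPE and frozen tissue were extracted with different kits. The column names of all 6 FFPE libraries begin with 1 code and those of all 6 frozen libraries with another. This code was taken as a run code, probably of sequencing, which the column names do not spell out. Fixation, storage, lobe, extraction and run code cannot be told apart in these pairs. The labels give neither the fixation time nor the storage conditions. For comparison, 4 control mice of the same strain, sex and age from the di(2-ethylhexyl) phthalate (DEHP) study, fed 0 ppm and with livers collected in 2013, gave 8 libraries of the same 2 kinds.

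Formaldehyde joins RNA to protein and to other RNA, adds groups to its bases, and the RNA breaks into short pieces during fixation and storage. Methods that capture poly(A) tails lose such fragments, and total RNA kits that deplete ribosomal RNA with probes are therefore commonly used for fixed tissue. Hepatocytes make up most of the liver's mass and devote much of their messenger RNA to secreted plasma proteins, urinary proteins and metabolic enzymes.

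Both preparations held liver RNA. Alb, which encodes serum albumin, stood at 42480 to 57710 CPM (counts relative to library size, scaled by the trimmed mean of M values, TMM) in the frozen libraries and at 15530 to 20360 in the FFPE libraries. The 12 pericentral and 12 periportal hepatocyte markers were all counted, with summed levels of 4049 to 5134 and 10140 to 12200 CPM in frozen and 2008 to 2960 and 4523 to 5828 CPM in FFPE liver.

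Frozen libraries held 14539643 to 16890024 counts and FFPE libraries 2167545 to 8434613. Of the 18 FFPE libraries of DCA-treated mice, 2 exceeded the lowest of these control totals. The FFPE libraries of animals 3 and 5 stood apart from the other FFPE libraries: Rn45s, the ribosomal RNA precursor, took 74.4% and 73.4% of their counts. Total numbers of calls and the tested shares of counts are given with and without them. Counts of calls in gene lists and classes include them.

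The genes were read in 1 paired test. Of 17672 gene rows 11991 were tested, and 990 differed between FFPE and frozen liver at an adjusted p under 0.05 (edgeR's quasi-likelihood test with animal as block, Benjamini-Hochberg adjustment over all genes tested), which is 8.26% of those tested. A positive log2 fold change means more in FFPE liver. Of the called genes, 165 were higher in FFPE liver (1.38% of those tested) and 825 were lower (6.88%). With DESeq2's size factors in place of TMM the split was 258 higher and 635 lower. The median log2 fold change of all tested genes was -0.65 with TMM, -0.49 with DESeq2's size factors, -0.58 with upper-quartile factors and -1.43 with library totals alone. It was -0.21 over 6913 genes after thinning to 877074 counts and -0.16 without the animal block. By abundance it was -2.02 in genes with a mean log2 CPM under 2 and -0.32 in those at 4 to 6. In the reported fit, a value near -0.65 is where the median gene of all tested stands. Without animals 3 and 5, 1035 genes were called. Leaving out 1 animal gave 1466 calls without animal 3, 547 without animal 4, 638 without 5, 584 without 6, 534 without 7 and 659 without 8, and 458 of the 990 genes were called in all 6 of these fits. With library totals alone 200 genes were called, and most list counts below went to 0, the secreted proteins among them.

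Fold changes were graded by the base composition of the transcripts, and stretches of named genes picked for their GC content illustrate it. By the naming rule, the 10 largest rises and the 10 largest falls were taken from the called genes whose log2 CPM averaged 4 or more and whose 6 FFPE values did not overlap the 6 frozen ones. Among all 11991 tested genes, the FFPE values lay wholly above the frozen ones in 248 and wholly below in 1501. From these, the 3 rises with the highest coding GC content and the 3 falls with the lowest are shown, leaving out near-identical gene copies. Each line is 90 bases from the middle of the longest coding exon, with G and C in capitals (GENCODE gene models on GRCm38, the mm10 build).
Mbd6, chr10:127286008-127286097, minus strand: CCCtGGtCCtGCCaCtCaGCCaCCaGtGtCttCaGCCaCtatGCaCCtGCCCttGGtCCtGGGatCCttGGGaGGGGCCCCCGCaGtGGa
Prr12, chr7:45048439-45048528, minus strand: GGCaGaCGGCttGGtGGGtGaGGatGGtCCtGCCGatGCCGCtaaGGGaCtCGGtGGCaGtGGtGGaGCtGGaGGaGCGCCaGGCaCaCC
Esrra, chr19:6920181-6920270, minus strand: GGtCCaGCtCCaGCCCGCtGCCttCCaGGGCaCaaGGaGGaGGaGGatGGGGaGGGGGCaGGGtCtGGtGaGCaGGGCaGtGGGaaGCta
Mup6, chr4:60004000-60004089, plus strand: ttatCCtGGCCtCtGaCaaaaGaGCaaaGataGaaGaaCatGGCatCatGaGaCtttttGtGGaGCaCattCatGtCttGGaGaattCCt
Ttc37, chr13:76131290-76131379, plus strand: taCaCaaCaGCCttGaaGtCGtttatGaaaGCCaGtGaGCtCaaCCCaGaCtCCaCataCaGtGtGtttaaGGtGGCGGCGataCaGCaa
Smc1a, chrX:152027778-152027867, plus strand: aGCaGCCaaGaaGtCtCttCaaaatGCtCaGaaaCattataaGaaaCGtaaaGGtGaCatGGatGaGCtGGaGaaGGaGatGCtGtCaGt

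The first 3 stretches belong to genes that rose and hold 59, 61 and 61 G or C bases of 90. The last 3 belong to genes that fell and hold 37, 43 and 38. Over the whole coding sequence, GC content was 64.5% in Mbd6, 63.4% in Prr12 and 61.8% in Esrra, against 38.2% in Mup6, 46.0% in Ttc37 and 47.7% in Smc1a. Since these 6 were picked for their GC content, they illustrate the pattern and do not measure it. Rarres2 (55%) and Bag1 (54.1%), with coding GC contents above those of all 3 falls shown, fell as well. Among falls not shown, the same kind of stretch held 66 G or C bases in Syap1, 57 in Rarres2, 56 in Bag1 and 52 in Psmc2, against 34 each in Mup10 and Mup1.

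The pattern was measured over all annotated genes whose log2 CPM averaged 4 or more, divided by transcript GC content into 5 classes of 915 to 918 genes. The median log2 fold change went up from class to class, from -0.79 in the class with a median GC of 41.8%, through -0.51, -0.38 and -0.23, to 0.09 in the class with a median GC of 57.1%. In the lowest class 6 genes were called higher and 225 lower. In the highest class 74 were called higher and 50 lower. The genes called higher had a median transcript GC of 56.2% (127 genes with an annotation), those called lower 47.0% (781 genes), and all tested genes 50.1%.

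The step between the highest and the lowest GC class was present in every animal. Among the genes whose log2 CPM averaged 4 or more, it was 1.24 on the log2 scale in animal 3, 1.08 in animal 8, 0.77 to 0.80 in animals 4, 5 and 6, and 0.58 in animal 7. In the recent DEHP controls the same step was 0.37 to 0.73 in 4 animals, with 1 of the older pairs inside that range and 5 above it. Over all tested genes the order changed: the step was 0.471 in animal 3, the smallest of the 6, 0.678 in animal 7, 0.809 to 0.915 in animals 4, 5 and 6 and 1.17 in animal 8. There the DEHP range was 0.405 to 0.745, with 2 of the older pairs inside it. These are descriptions across genes, which are not independent of each other.

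Length classes of the same genes lay closer together. From the shortest class (median 1374 bases) to the fourth (median 4744 bases), the median log2 fold change went from -0.66 to -0.25, and it was -0.29 in the longest class (median 7444 bases). The highest-minus-lowest length step was positive in 5 animals (0.10 to 0.60) and -0.23 in animal 3, but over all tested genes it was positive in all 6 (0.359 to 0.70, with animal 3 the highest). When genes were divided by both properties at once, short genes of low GC content had a median of -1.05, with 37.1% called lower, while long genes of high GC content had a median of 0.19, with 8.38% called higher and 2.89% lower.

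**Figure D1:**
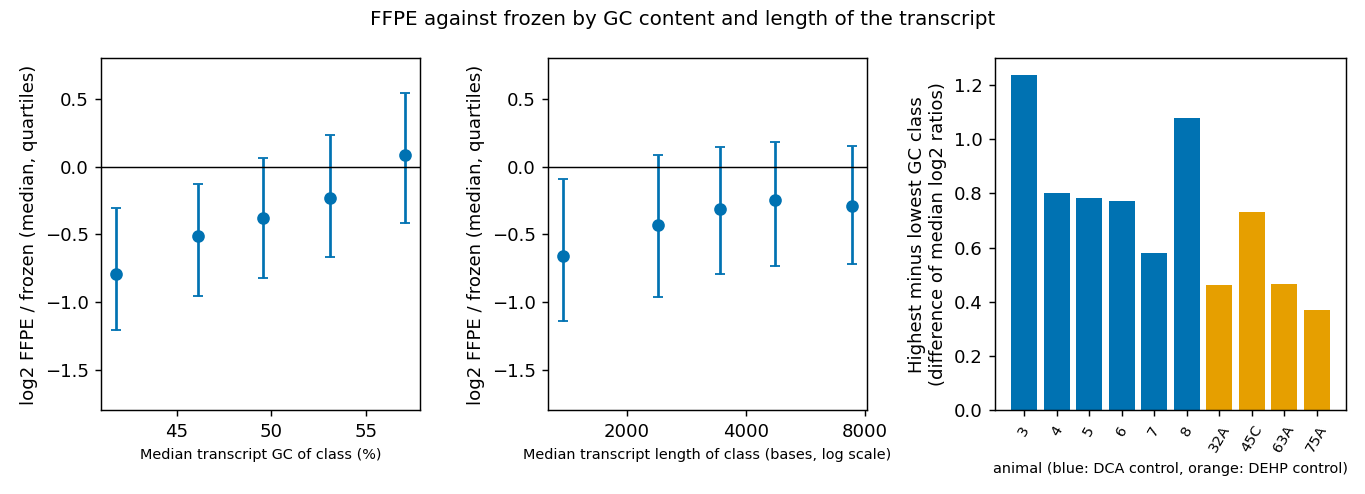
FFPE against frozen liver by transcript GC content and length, for genes whose log2 CPM averaged 4 or more. The left and middle panels give the median log2 fold change of each of 5 classes (points) with the quartiles (bars) against the class median of GC content (%) or of length (bases, log axis), and the right panel gives the step from the lowest to the highest GC class in each animal. The GC medians climb from -0.79 to 0.09, and the step is 0.58 to 1.24 in the 6 DCA controls (blue) and 0.37 to 0.73 in the 4 DEHP controls (orange).

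Ribosomal RNA filled a larger share of every FFPE library than of any frozen one. Rn45s took 0.33% to 1.57% of counts in frozen liver (mean 0.731% ± 0.433, SD, n = 6) and 4.89% to 74.4% in FFPE liver (29.1% ± 34.7, SD, n = 6). All 6 FFPE libraries lay above all 6 frozen ones, with 4.89% to 9.40% in animals 4, 6, 7 and 8. The mean difference of 28.4 percentage points had an exact 2-sided sign-flip p of 0.031 over the 6 pairs, the smallest this design allows (adjusted p = 0.031 over 3 such values). Without animals 3 and 5 the difference was 6.18 percentage points, and 4 pairs allow no p below 0.125.

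Other rows rose by more on the log2 scale. Lars2, a gene on chromosome 9 (chr9:123366927-123462666, plus strand) that encodes the mitochondrial leucyl-tRNA synthetase, had 44.3, 54.9 and 78.9 CPM as lowest, median and highest frozen values and 4387, 10260 and 696100 CPM in FFPE liver. The groups did not overlap, as the naming rule required. The highest FFPE values were again those of animals 3 and 5, where Lars2 took 12.5% and 10.4% of all counts. Its log2 fold change was 8.57 ± 0.94 (SE), with an adjusted p of 1.18e-05 in edgeR's test. Where in the Lars2 locus these reads lie cannot be read from gene-level counts.

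Mir6236, a microRNA hairpin row, rose with them. Its mature sequence of 19 bases is shown for its base composition, 78.9% G or C. In RefSeq on GRCm38.p6 the mature product spans chr9:110281353-110281371 on the plus strand, and the capitals mark the seed, bases 2 to 8.
mmu-miR-6236: gCCGUCGCcggcagucagg

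Mir6236 stood at 0.294, 0.422 and 1.39 CPM (lowest, median, highest) in frozen and at 35.3, 81.4 and 1670 CPM in FFPE liver, a log2 fold change of 7.78 ± 0.55 (adjusted p = 1.91e-07). In counts, the 6 FFPE libraries held 1022, 436, 187, 181, 243 and 339 for animals 3 to 8, and the frozen libraries 19, 7, 8, 6, 29 and 9, so the difference is in the reads themselves and not only in the scaling. A total RNA library counts the hairpin locus, and these values are not levels of the mature microRNA. The row TRNA_Glu had 425 counts over the FFPE libraries (137, 83, 9, 24, 28 and 144) and none in any frozen library, which makes it at least 812-fold higher per scaled library size (against 3 counts over the frozen group).

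The 10 most abundant rows other than Rn45s took 26.5% ± 0.44 (SD, n = 6) of the remaining counts in frozen liver and 47.8% ± 18.1 in FFPE liver. FFPE was higher in 6 of 6 animals, at 75.1% and 65.0% in animals 3 and 5 and 32.1% to 44.7% in the others, with an exact sign-flip p of 0.031. Without rows named only by sequence clones, the difference was 11.8 percentage points with FFPE higher in 2 of 6 animals (exact p = 0.5).

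Fewer genes were found in FFPE liver at equal totals without Rn45s. Depth left for the remaining genes was not equal, since in the FFPE library of animal 3 Lars2 alone held 425963 of these counts. With every library thinned to 877074 counts without Rn45s, 12560 ± 186 genes (SD, n = 6) had at least 1 count in frozen liver and 9689 ± 2007 in FFPE liver. FFPE was lower in 6 of 6 animals, with a mean difference of -2868 genes (exact sign-flip p = 0.031). The FFPE library of animal 3 had the fewest, 6251, and without animals 3 and 5 the difference was -2391.

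**Figure D2:**
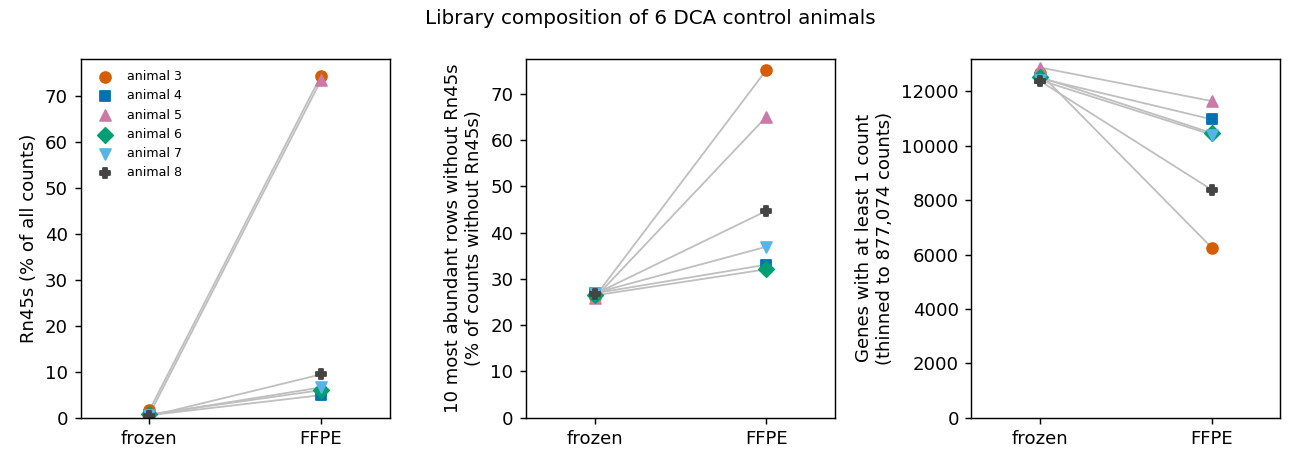
Composition of the 12 libraries, with a line joining the frozen and the FFPE library of an animal. The panels give the share of all counts in Rn45s (%), the share of the 10 most abundant other rows (%), and the number of genes with at least 1 count after thinning to 877074 counts. Every line rises in the first 2 panels and falls in the last, and animals 3 and 5 lie apart in the first panel at 74.4% and 73.4%.

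After Lars2, the protein-coding genes among the 10 largest rises include several of modest abundance. Mbd6, which encodes a protein with a methyl-CpG-binding domain, went from 4.41, 6.58 and 12.9 CPM (lowest, median, highest) in frozen to 32.6, 47.3 and 70.2 CPM in FFPE liver, with a log2 fold change of 2.80 ± 0.39 (adjusted p = 0.000156). Esrra, the oestrogen-related receptor alpha that drives genes of energy metabolism, went from 9.29, 12.1 and 14.4 to 22.2, 47.7 and 68.7 CPM (1.88 ± 0.35, adjusted p = 0.00223). Neither gene had an FFPE value inside the frozen range, as the naming rule required. Prr12, a proline-rich nuclear protein (1.89 ± 0.47, adjusted p = 0.0181), Nrbp2, a pseudokinase (1.73 ± 0.28, adjusted p = 0.000702), and Ppnr, annotated as a noncoding intronic transcript (2.04 ± 0.46, adjusted p = 0.00986), rose as well. Prr12 and Ppnr were not called in every fit that left out 1 animal, and in the authors' other count tables Esrra stood at 0.80 without a call (adjusted p = 0.522).

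Among lists with at least 10 tested members, nuclear long noncoding RNAs and small structural RNAs were the 2 with a median above 0. Of 11 tested nuclear long noncoding RNAs, 3 rose, against 1.38% of all genes tested, and none fell (median log2 fold change 0.47 against -0.65 for all genes; -0.14 with library totals alone). Malat1, the abundant RNA of nuclear speckles (chr19:5795690-5802672, minus strand), had 6988, 7232 and 8650 CPM in frozen and 9266, 18230 and 22580 CPM in FFPE liver (1.16 ± 0.15, adjusted p = 9.15e-05). All FFPE values lay above the frozen ones, although in animal 3 the within-animal log2 ratio was 0.10. Kcnq1ot1, the imprinted antisense transcript that silences neighbouring genes, rose by 1.26 ± 0.19 (adjusted p = 0.000342), and Jpx, an activator of Xist, by 2.45 ± 0.72 (adjusted p = 0.0471). The Jpx call was lost without any of animals 4 to 8 in turn (adjusted p of 0.108 to 0.189). Its groups overlapped, and it was higher in 5 of 6 animals, with a within-animal log2 ratio of -3.61 in animal 3. Neat1, the scaffold of paraspeckles, had 274 to 519 CPM in frozen and 167 to 1407 CPM in FFPE liver, higher in 5 of 6 animals, and just missed the threshold (1.10 ± 0.34, adjusted p = 0.0517). It passed in edgeR's test with DESeq2's size factors (adjusted p = 0.0145) and without animal 3 (adjusted p = 0.000126). With library totals alone (adjusted p = 0.691) or without any other single animal, Neat1 did not pass.

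Of 25 small structural RNAs tested, most of which carry no poly(A) tail, 3 rose and none fell, against 1.38% called higher over all genes, with a median of 0.47 (-0.14 with library totals alone). Vaultrc5, a vault RNA, went from 10.3 to 15.3 CPM in frozen to 45.4 to 75.3 CPM in FFPE liver (2.30 ± 0.28, adjusted p = 4e-05). Snord104, a guide for ribosomal RNA methylation, rose by 4.30 ± 1.02 (adjusted p = 0.0141) and Rnu12, a small RNA of the minor spliceosome, by 1.89 ± 0.50 (adjusted p = 0.0257). Both calls were lost without animals 3 and 5 (adjusted p = 0.122 and 0.144), and that of Rnu12 also without animal 5, 6 or 7. Rmrp and Rpph1, the RNA parts of the RNase MRP and RNase P enzymes, stood at -0.38 ± 0.13 (adjusted p = 0.0952) and -0.40 ± 0.15 (adjusted p = 0.11) and did not pass.

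Hepatocyte transcripts for secreted proteins were lower in FFPE liver almost throughout. Of 32 tested, 30 fell and none rose, with a median log2 fold change of -1.17, against 6.88% called lower and a median of -0.65 over all genes. Calls were frequent among highly expressed genes of any kind, and the counts of called list members were not matched for abundance. Of those tested, 34.8% of the 1049 genes with a mean log2 CPM of 6 to 8, 62.6% of the 190 genes at 8 to 10 and 92.1% of the 63 genes above 10 were called, with medians of -0.41, -0.61 and -1.06. Alb (chr5:90460897-90476602, plus strand) fell from a median of 51850 to 18150 CPM, with no overlap between groups and within-animal log2 ratios of -1.22 to -1.74 (-1.50 ± 0.10, adjusted p = 1.88e-07). Fgb, the fibrinogen beta chain, fell by 1.76 ± 0.11 in log2 units (adjusted p = 1.88e-07), and Apoa1, the main protein of high-density lipoprotein, by 1.64 ± 0.12 (adjusted p = 2.27e-07). Ttr, the thyroxine carrier transthyretin, fell by 0.76 ± 0.13 (adjusted p = 0.00098), close to the median of all genes. The 2 members that did not pass were Apoc3 (-0.31) and Rbp4 (0.05). In such bulk samples, fewer cells of a type and less RNA per cell cannot be told apart.

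Rarres2 (chr6:48569696-48572789, minus strand) encodes chemerin, a secreted chemoattractant and adipokine made by the liver. It had 120, 140 and 149 CPM (lowest, median, highest) in frozen and 18.7, 22.02 and 30.4 CPM in FFPE liver. The fall was of similar size in every animal, with within-animal log2 ratios of -1.99 to -2.91 (-2.52 ± 0.22, adjusted p = 1.08e-06).

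Other large falls were genes of middle abundance whose FFPE counts reached 0 in at least 1 library. Smc1a, a subunit of the cohesin ring, had 43.5, 44.8 and 46.8 CPM in frozen and 0, 8.17 and 20.1 CPM in FFPE liver (-2.67 ± 0.55, adjusted p = 0.00524). Psmc2, an ATPase of the proteasome (-2.69 ± 0.69, adjusted p = 0.0217), Bag1, a co-chaperone of HSP70 (-2.75 ± 0.73, adjusted p = 0.0271), Fam21, of the WASH complex (-3.45 ± 0.90, adjusted p = 0.0237), Ttc37, of the SKI complex in RNA decay (-2.48 ± 0.71, adjusted p = 0.0423), and Syap1 (-2.55 ± 0.75, adjusted p = 0.0471) showed the same form. Of these 6 genes, Smc1a was the 1 called in every fit that left out an animal.

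Of 20 acute phase genes tested, which hepatocytes switch on in inflammation, 9 fell and none rose (median -1.09). Over all genes 6.88% were called lower. Cp, ceruloplasmin, the copper carrier of plasma, fell by 1.61 ± 0.12 (adjusted p = 3.25e-07) and Serpina3k by 1.30 ± 0.10 (adjusted p = 3.27e-07). The inducible serum amyloids Saa1 (0.09) and Saa2 (0.20) did not pass.

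Of 42 liver cytochromes P450 tested, 18 fell, none rose and 24 did not pass, against 6.88% called lower over all genes, with a median of -0.96. Cyp3a11, the main steroid and drug hydroxylase of its family, had 783, 1441 and 2058 CPM in frozen and 212, 400.4 and 577 CPM in FFPE liver (-1.91 ± 0.12, adjusted p = 1.88e-07), and Cyp3a25 fell by 1.74 ± 0.16 (adjusted p = 2.4e-06). Cyp2e1, the ethanol-oxidising P450 of pericentral hepatocytes, fell by 1.01 ± 0.11 (adjusted p = 1.18e-05). Cyp4a14, a target of PPAR alpha, ranged from 0.157 to 9.36 CPM in frozen and from 2.92 to 88.3 CPM in FFPE liver, and its log2 fold change of 2.79 ± 0.94 did not pass (adjusted p = 0.0787).

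The metabolic lists held falls and no rises, where 6.88% of all genes were called lower. Of 25 tested genes of fatty acid oxidation 10 fell (median -0.70), among them Acadvl, the long-chain acyl-CoA dehydrogenase (-1.40 ± 0.18, adjusted p = 5.8e-05), and Hsd17b4 of the peroxisomal pathway (-1.44 ± 0.19, adjusted p = 6.47e-05). Of 20 genes of glucose and glycogen metabolism 10 fell (median -0.91), with Pck1, which commits carbon to gluconeogenesis, at -1.14 ± 0.12 (adjusted p = 4.91e-06). Of 22 genes of cholesterol synthesis 5 fell (median -0.44), Fdps by 1.37 ± 0.23 (adjusted p = 0.000919) and Hmgcs1 by 1.67 ± 0.38 (adjusted p = 0.0103).

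Markers of both zones of the lobule held falls and no rises. Of 12 pericentral markers 4 fell, against 6.88% of all genes, and their median of -0.65 was that of all genes. Oat, ornithine aminotransferase, fell by 1.73 ± 0.19 (adjusted p = 1.22e-05). Of 12 periportal markers 6 fell (median -0.89), Cps1, which starts the urea cycle, by 1.44 ± 0.10 (adjusted p = 1.91e-07) and Ass1 by 1.34 ± 0.12 (adjusted p = 8.67e-07). The authors' other count tables gave 0.50 for Ass1 (adjusted p = 0.0592), so its direction depended on the table. The difference between the zones was not tested.

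Machinery for making and breaking proteins and for respiration showed no rise beyond 1 gene, where 6.88% of all genes were called lower. Among cytosolic ribosomal proteins 37 of 80 fell (median -0.98), Rpl19 by 1.39 ± 0.20 (adjusted p = 0.000204) and Rpl21 by 1.99 ± 0.32 (adjusted p = 0.000519). Among 37 proteasome subunits 12 fell (median -1.31), for example Psmc1 by 1.95 ± 0.46 (adjusted p = 0.0128) and Psmd1 by 1.05 ± 0.22 (adjusted p = 0.00573). Of 76 mitochondrial ribosomal proteins none passed in edgeR's test, with a median of -1.44. At an unadjusted p under 0.05, 21 were lower and 0 higher, and DESeq2 called 23 lower. Their summed level was 873 to 938 CPM in frozen and 558 to 662 CPM in FFPE liver.

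Nuclear-encoded respiratory chain subunits were split between 30 falls and 1 rise among 78 tested (median -1.19), against 6.88% and 1.38% of all genes. Cycs, cytochrome c, fell by 1.83 ± 0.27 (adjusted p = 0.000249) and Cox4i1, a subunit of complex IV, by 1.35 ± 0.19 (adjusted p = 0.000198). The rise was Cox8a, another subunit of complex IV, from 44.8, 51.0 and 54.5 CPM in frozen to 95.5, 112 and 199 CPM in FFPE liver (1.27 ± 0.21, adjusted p = 0.000757). Its coding GC content was 65.2%. In addition, 3 rows whose names are used for mitochondrially encoded subunits were chosen after their values were seen, and all fell: Atpase6 by 2.03 ± 0.16 (adjusted p = 3.27e-07), Cox2 by 1.72 ± 0.13 (adjusted p = 2.06e-07) and Cytb by 0.88 ± 0.13 (adjusted p = 0.000202).

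Of 16 heat shock genes, which encode chaperones, 8 fell, none rose and 8 did not pass, against 6.88% called lower over all genes (median -1.40), Hsp90aa1, the stress-inducible HSP90, by 1.90 ± 0.17 (adjusted p = 1.13e-06) and Hspa5, the chaperone of the endoplasmic reticulum, by 1.65 ± 0.12 (adjusted p = 1.91e-07). Of 15 tested immediate early genes 1 rose and none fell (median -0.20), against 1.38% called higher over all genes. That gene was Zfp36, which promotes decay of AU-rich messages, from 11.4, 19.1 and 27.4 CPM to 21.8, 54.5 and 70.0 CPM, with overlapping groups (1.42 ± 0.30, adjusted p = 0.00576, and 0.0541 without animal 4). None of the 13 hypoxia targets, 14 clock genes, 21 interferon response genes or 19 cell cycle genes tested passed in edgeR's test. At an unadjusted p under 0.05, these lists held 1, 2, 5 and 5 genes, and DESeq2 called 1, 1, 4 and 2.

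Replication-dependent histones, whose messages end in a stem-loop and not in a poly(A) tail, were hard to read at the depth of the FFPE libraries. Of 59 listed, 28 had enough counts to be tested and 3 fell, against 6.88% called lower over all genes (median -2.96). The summed level of all 59 fell by less than this median, with 159, 170 and 240 CPM (lowest, median, highest) in frozen and 63.5, 105.8 and 126 CPM in FFPE liver. No FFPE count at all was found for 19 of the 59. Hist1h1a had 271 counts over the frozen libraries and 0 over the FFPE libraries, at least 15.8-fold lower per scaled library size. Hist1h4m had 592 counts in frozen and 3 in FFPE liver, a ratio of 34.4 with a 95% interval from counting alone of 11.7 to 168. Hist1h4h fell by 5.96 ± 1.64 (adjusted p = 0.0331), but was not called in every fit that left out 1 animal. The calls of Hist1h1a and Hist1h4m were lost whichever animal was left out (adjusted p of 0.0784 to 0.111 and 0.0557 to 0.116).

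Genes used as references in quantitative PCR moved unequally. Of 18, 8 fell and none rose (median -0.79), against 6.88% called lower over all genes. Actb, beta-actin, had 674, 703.7 and 747 CPM in frozen and 515, 711.9 and 1013 CPM in FFPE liver, with overlapping groups and a log2 fold change of 0.00 ± 0.14 (adjusted p = 0.99). With library totals alone it stood at -0.77. Gapdh had 268, 327 and 352 CPM in frozen and 65.4, 117 and 146 CPM in FFPE liver, without overlap (-1.58 ± 0.21, adjusted p = 7.94e-05). B2m, the light chain of MHC class I, fell by 1.00 ± 0.16 (adjusted p = 0.000586) and Ppia by 0.76 ± 0.20 (adjusted p = 0.0231, and 0.0808 with DESeq2's size factors). The Ppia call was also lost without any of animals 4 to 8 in turn (adjusted p of 0.0605 to 0.105). Its groups overlapped, and in animal 3 it was higher in FFPE liver (log2 ratio 0.147). Hprt (-0.84 ± 0.58, adjusted p = 0.401) and Tbp (-0.63 ± 1.29, adjusted p = 0.8) did not pass.

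**Figure D3:**
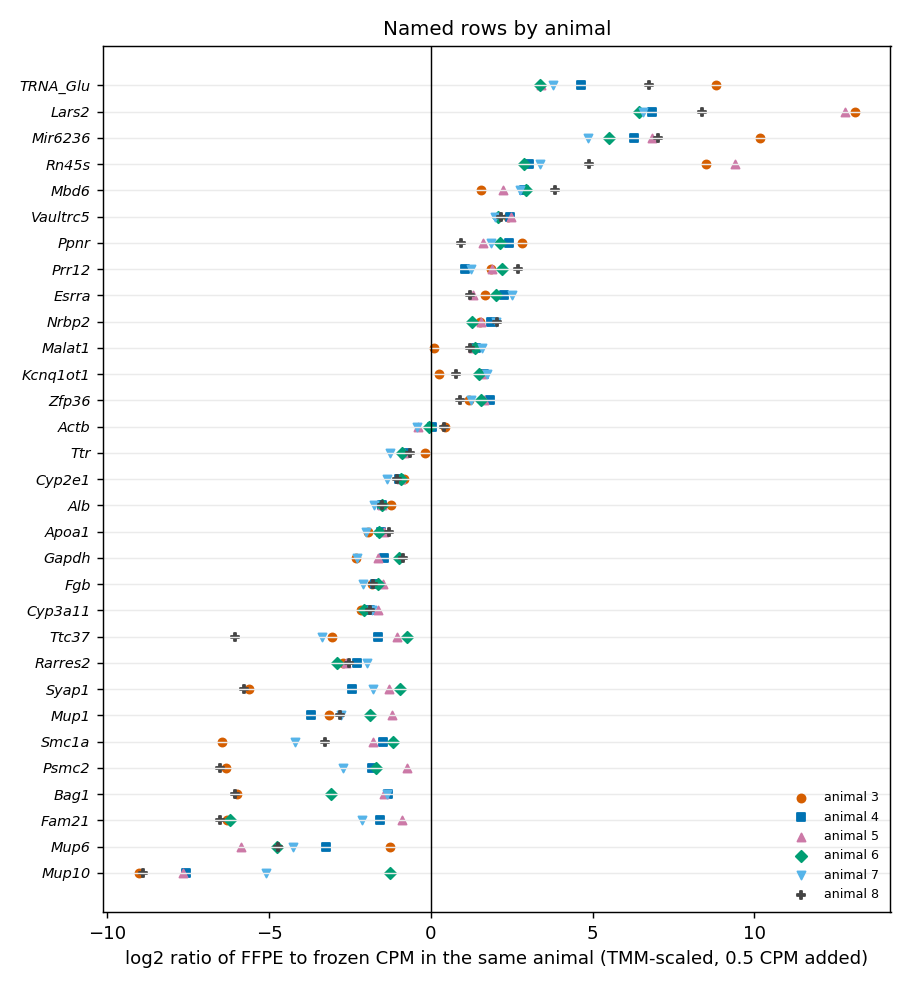
Within-animal log2 ratios of FFPE to frozen CPM (TMM-scaled, 0.5 CPM added) for named rows, 1 symbol per animal. Lars2, Mir6236 and Rn45s spread over several log2 units between animals, Alb and Rarres2 lie close together in all 6, and Actb straddles 0.

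Markers of the non-parenchymal cells of the liver were called lower at a share near the 6.88% of all genes, but their medians differed. The median was -1.23 for Kupffer cells, -1.19 for sinusoidal endothelium, -0.37 for stellate cells and -0.25 for collagens and matrix, against -0.65 for all genes. At an unadjusted p under 0.05 in edgeR's test, these lists held 3, 8, 1 and 4 lower genes and none higher. Of 13 Kupffer cell markers 1 fell, Clec4f, the lectin of these macrophages (-0.89 ± 0.25, adjusted p = 0.0385). That call was lost in 5 of the 6 fits that left out 1 animal (adjusted p of 0.0956 to 0.134) and with DESeq2's size factors (adjusted p = 0.0993). Of 16 markers of sinusoidal endothelium 2 fell, Mrc1, the mannose receptor (-2.19 ± 0.35, adjusted p = 0.000587), and Kdr, the VEGF receptor (-1.44 ± 0.36, adjusted p = 0.0181). Of 15 stellate cell markers 1 fell, Dcn, decorin (-1.34 ± 0.26, adjusted p = 0.0032), and of 22 collagen and matrix genes Fn1 (-0.60 ± 0.11, adjusted p = 0.00214) and Col4a1 (-0.78 ± 0.22, adjusted p = 0.0432) fell. Kdr lost its call without animal 4, 6 or 7, and Col4a1 without animal 4, 5, 6 or 7 (adjusted p of 0.0955 to 0.132) and with DESeq2's size factors (adjusted p = 0.107).

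Markers of tissues outside the liver were high in some libraries and low in the others. The summed level of 13 skeletal muscle markers was 2313 CPM in the frozen library of animal 5, 113 CPM in that of animal 6 and at most 0.902 CPM in the other frozen libraries. In FFPE liver it was 425 CPM in animal 3, 99.3 in animal 5, 24.4 in animal 6 and at most 0.145 in the rest, and no muscle marker entered the test. Of 16 exocrine pancreas markers 13 were in the table, with 10.9 to 16.5 CPM in frozen liver and 18.8 to 36.8 CPM in FFPE liver except animal 3 at 948 CPM. Red cell markers overlapped between the preparations (357 to 990 against 508 to 851 CPM), and 11 of 13 lymphocyte markers in the table had no FFPE counts.

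**Figure D4:**
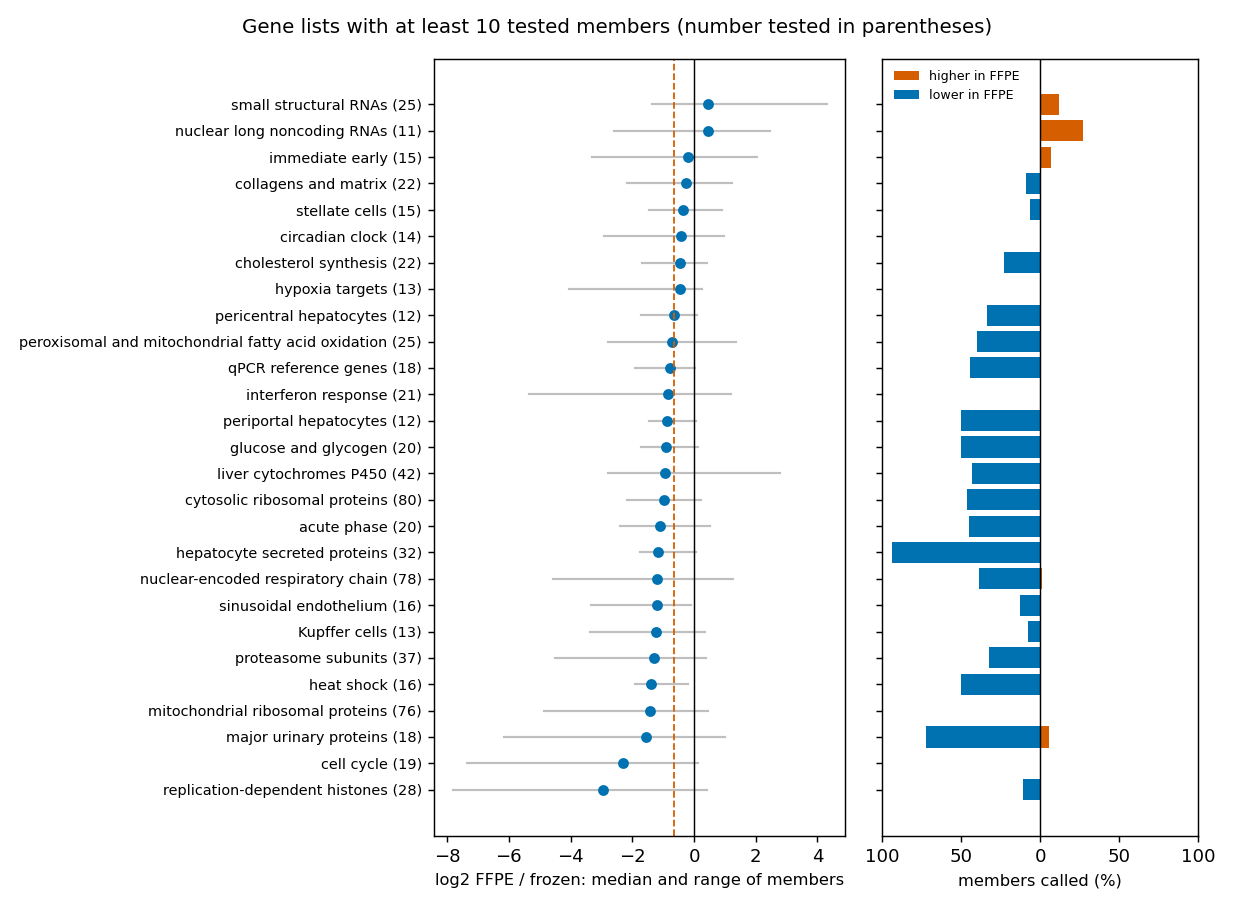
Gene lists with at least 10 tested members. The left panel gives the median (point) and range (line) of the members' log2 fold changes, with the median of all genes at -0.65 dashed, and the right panel the percentage of members called lower (blue) and higher (orange) in FFPE liver. Secreted proteins have the largest share called lower (30 of 32), and nuclear noncoding and small structural RNAs are the 2 lists drawn with a median above 0.

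Major urinary proteins (MUPs), small pheromone carriers that male mice make in the liver and excrete, held both directions in 1 family. Of 18 tested, 13 fell and 1 rose (median -1.57), against 6.88% and 1.38% of all genes. Mup1 had 827, 1583 and 2989 CPM in frozen and 73.5, 305 and 736 CPM in FFPE liver (-2.59 ± 0.25, adjusted p = 2.82e-06). Mup2 (chr4:60135932-60154289, minus strand) had 557, 805 and 1606 CPM in frozen and 882, 1439 and 3755 CPM in FFPE liver. Its groups overlapped, but it was higher in 6 of 6 animals (1.01 ± 0.14, adjusted p = 9.15e-05). In the authors' other count tables it stood at 0.81 without a call (adjusted p = 0.245). Mup15 (chr4:61435790-61439743, minus strand) was lower in 6 of 6 animals (-1.55 ± 0.15, adjusted p = 2.49e-06).

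Mup2 and Mup15 are shown side by side because they moved in opposite directions and are nearly the same sequence. Their coding sequences differ at 2 of 540 bases, counted from 1 at the start codon, C13T and G472A from Mup2 to Mup15. The first 90 coding bases follow, with the base that differs in capitals.
Mup2: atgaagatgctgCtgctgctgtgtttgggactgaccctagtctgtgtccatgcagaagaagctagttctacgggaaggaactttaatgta
Mup15: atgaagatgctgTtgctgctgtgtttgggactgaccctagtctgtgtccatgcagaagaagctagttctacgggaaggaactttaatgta

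Every 50-base stretch of the coding sequence of Mup2, and every such stretch of Mup15, also occurs in another MUP gene, so their expected counts rest on how reads were shared out between copies. The opposite directions are therefore uncertain as statements about either gene. Mup10, with 98.0% of its 50-base stretches shared, had FFPE counts only in animals 6 (484) and 7 (15) and a log2 fold change of -6.15 ± 0.90 (adjusted p = 0.000225), and it stood at 2.19 (adjusted p = 1.15e-05) in the authors' other count tables. Mup1 shares 96.2% of its stretches and stood at -0.51 in the authors' other count tables, where the list had 9 falls and a median of -0.76. Copies that share few stretches can be told apart, and they did not move alike. Mup20, with 4.7% shared, fell by 0.68 ± 0.17 (adjusted p = 0.0222) and Mup5, with 7.7% shared, stood at -0.89 ± 0.27 (adjusted p = 0.05), both near the median of all genes. Mup6, with 0.2% shared, fell the furthest of these. It had 28.6, 37.3 and 61.0 CPM in frozen and 0, 1.70 and 16.3 CPM in FFPE liver (-4.22 ± 0.64, adjusted p = 0.000306). No values overlapped, as the naming rule required.

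The spread between animals was wider in FFPE liver. The biological coefficient of variation, the SD between animals relative to the mean after counting noise is taken off, was 107.5% in FFPE and 16.8% in frozen liver, a ratio of 6.41. With all libraries thinned to the same depth the ratio was 5.55, and without animals 3 and 5 it was 6.97.

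Frozen profiles were nearly interchangeable, with Spearman's rho of 0.977 to 0.988 between animals over 11990 genes. FFPE profiles of different animals correlated at 0.552 to 0.839. An FFPE library and the frozen library of its own animal correlated at 0.599 in animal 3, 0.753 in animal 8 and 0.831 to 0.866 in the other 4. In every animal the highest correlation was with the frozen library of another animal, for example 0.876 against 0.866 in animal 5. After the mean of each preparation was taken off, the deviations of the FFPE library correlated best with the frozen library of its own animal in 6 of 6 animals, though weakly (r = 0.062 in animal 3 and 0.155 to 0.260 in the others, over 4807 genes). These correlations run across genes within pairs of libraries and are descriptions.

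The difference between FFPE and frozen liver was then compared with that in the recent DEHP controls in 1 joint fit of both sets of controls and 12892 genes. In that fit 3050 genes were called in the 6 older pairs (442 higher, 2608 lower, 23.7% of those tested) and 139 in the 4 recent pairs (52 higher, 87 lower, 1.08%). The paired fit of the older pairs alone had called 990 of 11991. The joint fit estimates the spread of each gene from both studies together, and the studies differ in their number of pairs. The counts 3050 and 139 therefore do not measure the size of the difference in each study. The median log2 fold change was -0.67 in the older pairs and 0.00 in the recent ones. The difference between the studies was itself called for 150 genes (1.16%), 144 of them lower in the older pairs and 6 higher (28 and 9 with DESeq2's size factors). It was called for 1183 genes without DCA animals 3 and 5, 633 without animal 3 and 726 without animal 5, for 99, 92 and 85 without animals 4, 6 and 7, and for 30, 32, 25 and 19 without DEHP animals 32A, 45C, 63A and 75A. Collection year, animals, depth and run codes all differ between the studies and cannot be told apart.

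Of the 32 secreted protein genes, 16 had a called difference between the studies, all lower in the older pairs, against 1.12% of all genes tested. Among heat shock genes 6 of 16, among cytochromes P450 5 of 42, among genes of glucose and glycogen metabolism 4 of 20 and among fatty acid oxidation genes 2 of 25 were lower in the older pairs, and none of the 22 genes of cholesterol synthesis differed. Alb stood at -1.56 in the older and -0.77 in the recent pairs, a difference of -0.79 ± 0.11 (adjusted p = 0.00616). Fgb stood at -1.82 and -0.97 (difference -0.85 ± 0.14, adjusted p = 0.0106), and Rarres2 at -2.57 and -0.95 (difference -1.63 ± 0.21, adjusted p = 0.00392). All 3 were also called lower in the recent pairs. Ttr, in contrast, stood at -0.82 and -0.69 (difference -0.13 ± 0.17, adjusted p = 0.735). Many of these calls rested on the number of recent pairs. Of the 34 named rows with a called difference, 17 lost it whichever of the 4 DEHP animals was left out, and 10 kept it in all 4 of those fits. Rarres2 was among the 8 that kept it under every setting tried. Alb (adjusted p = 0.0825) and Fgb (adjusted p = 0.0765) lost it with DESeq2's size factors.

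Some genes were lower in the older pairs with recent values near 0 or above it. Gapdh stood at -1.63 and -0.27 (difference -1.36 ± 0.27, adjusted p = 0.0339) and Mrc1 at -2.19 and -0.35 (-1.84 ± 0.37, adjusted p = 0.0339). Mup6 had the largest downward difference named by the rule, -4.08 ± 0.80 (adjusted p = 0.0297), from frozen levels of 32.0 to 68.9 CPM in the DCA and 3.12 to 3.59 CPM in the DEHP controls, followed by Mup12 (-2.79, a copy with 94.9% of its 50-base stretches shared), Atpase6 (-2.57), Hsph1, a large heat shock protein (-1.91), and Mrc1. The calls of Gapdh, Mup6, Hsph1 and Mrc1 were all lost whichever DEHP animal was left out (adjusted p of 0.138 to 0.162, 0.118 to 0.151, 0.14 to 0.169 and 0.149 to 0.169) and with DESeq2's size factors (adjusted p of 0.0765 to 0.0825). Those of Mup12 and Atpase6 held under every setting tried. In the recent pairs these 2 rows stood above 0, Mup12 at 1.16 ± 0.26 (adjusted p = 0.0532 in the joint edgeR fit) and Atpase6 at 0.48 ± 0.19 (adjusted p = 0.521).

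An upward difference was called for 2 named genes, against 0.0465% of all genes tested. Mup2 stood at 0.95 in the older and -0.86 in the recent pairs (difference 1.81 ± 0.18, adjusted p = 0.000383). Moxd1, a copper-dependent monooxygenase, had a difference of 5.38 ± 1.09 (adjusted p = 0.0339), and it rests on very unequal levels, since frozen DCA controls held 0.0519 to 0.237 CPM and frozen DEHP controls 32.4 to 243 CPM. It was not called whichever DEHP animal was left out (adjusted p of 0.138 to 0.169), without DCA animal 7 (adjusted p = 0.0638) or without DCA animals 3 and 5, where it was 3.15 (adjusted p = 0.0668).

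Neither Rn45s nor Lars2 differed between the studies at the threshold. Rn45s stood at 4.91 ± 0.89 and 4.01 ± 0.95 (difference 0.90 ± 1.23, adjusted p = 0.748) and Lars2 at 8.50 ± 1.05 and 5.65 ± 1.08 (difference 2.86 ± 1.30, adjusted p = 0.309). Mbd6 stood at 2.75 and 1.86 (adjusted p = 0.383), Malat1 at 1.10 and 0.28 (adjusted p = 0.0873), and Actb at -0.06 and -0.12 (adjusted p = 0.895). A p above the threshold does not show that these values were alike.

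**Figure D5:**
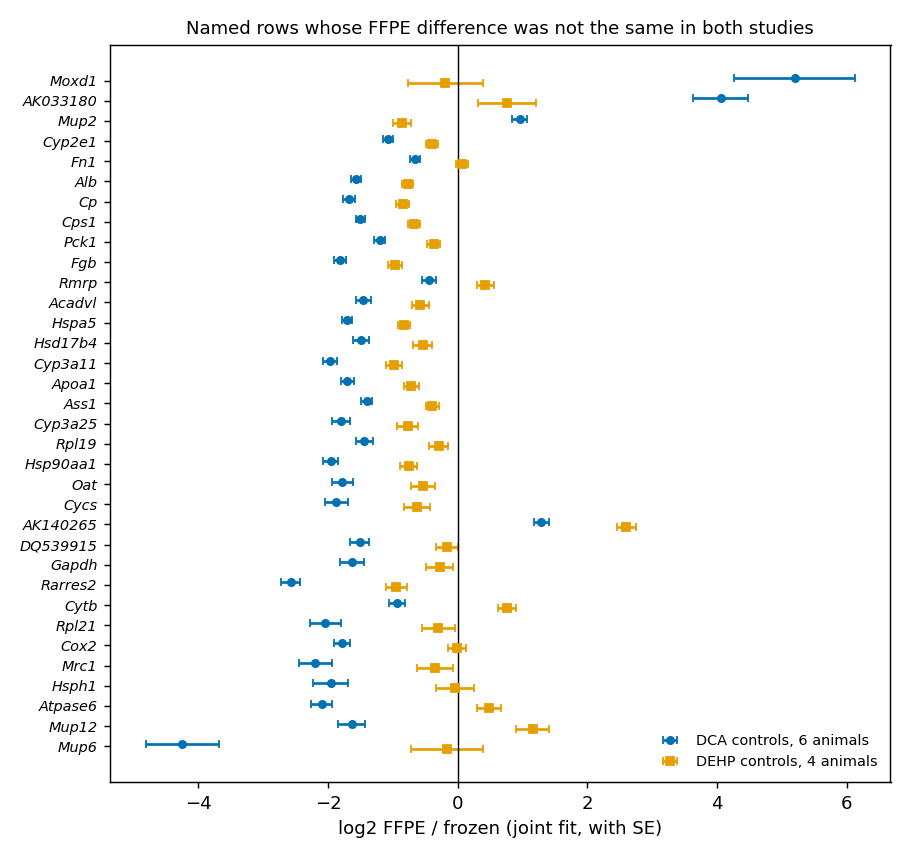
Log2 fold changes of FFPE against frozen liver (with SE, joint edgeR fit) in the 6 DCA controls (circles) and the 4 DEHP controls (squares), for named genes with a called difference between the studies. Moxd1, Mup2 and the clone row AK033180 lie higher in the DCA controls, and the other rows drawn lie lower, from Cyp2e1 to Mup6.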

How the data were processed

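RNA was sequenced on the HiSeq platform. Per the submitters' processing notes, CASAVA, STAR 2.4 and RSEM were used with mm10. The values used are expected counts per gene that the authors made with RSEM and deposited without normalisation, and they were rounded to whole numbers here. A second set of raw count tables deposited by the authors, which held 19008 genes for both preparations, served as an alternative. The animal and preparation named in each column tied it to its library.

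The pairs were fitted with the quasi-likelihood test of edgeR 4.0.16 (under R 4.3.3), using filterByExpr (minimum count 10), TMM scaling and the animal as block. A gene was called when its 2-sided p, adjusted by Benjamini-Hochberg over every tested gene, was under 0.05, and each SE is the size of the log2 fold change divided by the square root of F. Pairing comes from the labels, which give both libraries of an animal the same number. In all 6 pairs the residuals of an FFPE library correlated best with the frozen library of its own animal, with a median r of 0.165. Shares and gene numbers were compared with an exact sign-flip test over pairs, and the controls of both studies in 1 joint edgeR fit. GC content and length come from GENCODE models on GRCm38, matched by symbol for 92.1% of tested genes. Predicted and clone symbols were passed over in naming (6 of the rises, none of the falls), 2 called members of smallest adjusted p were added per list, and a fixed set was always named. Some members this rule named are not reported here. The members, the 39 gene lists and the tests were chosen with earlier results of these data known.

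On simulated data, the paired fit recovered 11% of 2-fold and 40% of 4-fold changes with 2 false calls among 11991 genes, and the joint fit 6% and 36% with 4 false calls among 12892. The simulation used the real depths and scaling, with 100 genes changed by each fold. It gave both preparations the same spread and no effect of animal. Real spread was 107.5% in FFPE and 16.8% in frozen liver, so these figures do not measure error in the real libraries. Depth intervals cover counting error only. Alternatives were DESeq2 1.42.0, its size factors, upper-quartile factors, library totals, other filters and thresholds, no block, thinning to 877074 counts, the other tables and leaving out animals. Removing 6 ribosomal-type rows and leaving out animals 3 and 5 together were chosen after seeing the data.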

Additional observations from a re-analysis of the deposited data

Results flagged for a closer look

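Single libraries lay far from the other 5 of their kind in 13 of 97 groups of values examined, where about 5% of groups would by chance. The frozen library of animal 3 had 1.571% of its counts in Rn45s, the highest of the frozen libraries. In 9 of the other cases it was the FFPE-to-frozen log2 ratio of animal 3 that stood apart: Hmgcs1 at -7.956, Psmc1 at -6.304, Hprt at -5.173, Mrc1 at -4.863, Jpx at -3.612, Hsd17b4 at -2.182, Neat1 at -1.634, Malat1 at 0.100 and the clone row AK033180 at 6.937. This FFPE library had the smallest scaled size, and Hmgcs1, Psmc1, Hprt and Jpx had no count in it. In animal 6 the ratios of Mup15 (-2.381) and Hist1h4h (-0.937) stood apart, and in animal 7 that of Fn1 (-0.947).

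The FFPE difference was not the same in older and recent pairs for these named genes, tested in the joint edgeR fit. Given as older minus recent on the log2 scale, it was lower in the older pairs for Mup6 (-4.08), Mup12 (-2.79), Atpase6 (-2.57), Hsph1 (-1.91), Mrc1 (-1.84), Rpl21 (-1.74), Rarres2 (-1.63), Gapdh (-1.36), Cycs (-1.25), Oat (-1.24), Hsp90aa1 (-1.20) and Rpl19 (-1.14). Smaller differences in the same direction were those of Cyp3a25 (-1.03), Ass1 (-1.01), Apoa1 (-0.99), Cyp3a11 (-0.98), Hsd17b4 (-0.95), Acadvl (-0.88), Hspa5 (-0.88), Rmrp (-0.87), Fgb (-0.85), Pck1 (-0.84), Cps1 (-0.83), Cp (-0.82), Alb (-0.79), Fn1 (-0.73) and Cyp2e1 (-0.67). Rows named by a clone or a mitochondrial subunit were Cox2 (-1.77), Cytb (-1.70), DQ539915 (-1.35) and AK140265 (-1.32). Not all of these were falls in both studies: Cytb stood at -0.94 in the older and 0.76 in the recent pairs, and AK140265 rose in both (1.29 and 2.60). Moxd1 (5.38), AK033180 (3.30) and Mup2 (1.81) were higher in the older pairs. Of these 34 rows, 17 lost the call whichever DEHP animal was left out. Study, collection year, depth and run code cannot be told apart in this comparison.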

How the results depend on the processing

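Of the values of named genes recomputed for FFPE against frozen liver, 1515 kept their direction and their side of the threshold, 184 lost the call, 14 gained it and 18 changed sign. For the difference between older and recent pairs 499 kept both, 166 lost the call, 5 gained it and 4 changed sign. Of 34 named rows with a called difference, 8 kept it under every setting and 17 lost it whichever DEHP animal was left out. Among 89 named rows tested, 65 kept their call or lack of one in all fits without 1 animal.

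The number of called genes, 990, was 2195 with DESeq2 (604 higher, 1591 lower), 200 with library totals, 469 at an adjusted p under 0.01 and 534 to 1466 without 1 animal. Thinning gave 243 higher and 450 lower. Without the replicate block 1335 genes were called (375 higher, 960 lower). The 150 genes that differed between older and recent pairs became 37 with DESeq2's size factors, 246 without the Rn45s row, 563 without the replicate block, 50 after thinning, 1183 without DCA animals 3 and 5 and 19 to 726 without 1 animal. The causes were not tested.

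For Rn45s, the difference in share was 19.48 to 33.17 percentage points without 1 animal and 6.18 without animals 3 and 5. Genes detected differed by -3195 to -2160 and by -2391. The share of the 10 most abundant rows differed by 15.8 to 24.49 and by 9.958, and by 11.84 without clone rows. With 5 or 4 pairs the smallest exact p is 0.0625 or 0.125, so these say nothing about stability. The ratio of variation between animals was 5.553 after thinning and 5.749 to 7.549 without 1 animal.

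Signs changed for Actb, at -0.7742 with library totals, -0.0315 without a filter and -0.082 to 0.0946 without 1 animal, and for Tbp, at 0.6161 without the replicate block and -1.3938 to 0.0826 without 1 animal. For AK018753 the sign changed to 0.1158 with DESeq2, 0.1175 with its size factors, 0.0328 with upper-quartile factors, 0.8785 without the replicate block, 0.1548 after thinning and 1.4362 without animals 3 and 5, and values without 1 animal ran from -0.711 to 0.7214. The difference between older and recent pairs changed sign for Rn45s (-0.5226 without animals 3 and 5), Ttr (0.1118 with DESeq2's size factors, 0.0914 after thinning) and Actb (-0.0184 to 0.1927 without 1 animal). In the other count tables Mup10 stood at 2.1859 and Ass1 at 0.5017. Both Actb and Tbp lay within their error of 0 in the reported fit. Depth limits the rarer genes: the 2805 tested genes with a mean log2 CPM under 2 had a median of 40 counts over all FFPE libraries, and 119 tested genes had none.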

Other observations

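Several of the most abundant rows are named only by sequence clones, and their values were looked at after they were seen. AK155692 had 303 to 523 CPM in frozen and 10090 to 111300 CPM in FFPE liver (log2 fold change 6.19 ± 0.42, adjusted p = 1.88e-07 in edgeR's test). GU332589 had 9.75 to 13.2 CPM in frozen and 710 to 197900 CPM in FFPE liver (8.15 ± 1.06, adjusted p = 7.43e-05), and it took 3.54% and 2.86% of all counts in the FFPE libraries of animals 3 and 5 against 0.110% to 0.267% in the other 4. AK199495 had 810 counts over the FFPE libraries and none in the frozen ones, at least 1547-fold higher per scaled library size against 3 counts.

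The row AK018753 split the FFPE libraries. It took 14.1% to 24.0% of counts in animals 4, 6, 7 and 8, above the 5.71% to 7.48% of all frozen libraries, but 0.030% and 0.050% in animals 3 and 5. Its fitted log2 fold change of -0.03 (adjusted p = 0.986) therefore describes none of the 6 animals, and the animals with little AK018753 are those with 74.4% and 73.4% Rn45s. AK140265, in contrast, was higher in 6 of 6 animals (7237 to 9882 against 16290 to 25260 CPM), and DQ539915 lower in 6 of 6 (14420 to 18240 against 3430 to 8961 CPM).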
